A study of Homo sapiens with 6 samples.

Results

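The protein genes of the small ribosomal subunit were examined for places where their RNA was crosslinked to GAPDH, a glycolytic enzyme that also binds RNA. They were taken by symbol from the peak lists: RPS followed by a number, with the paralogs and letter forms of that name, plus RPSA and FAU, whereas pseudogenes and the RPS6K kinases did not match. Of 34 such genes in the GENCODE annotation, 21 carried at least 1 peak, beside 560 of 20033 protein coding genes (2.8%). The lists named 947 genes in all. MOLM-13, a human cell line of monocytic acute myeloid leukaemia, was cultured in galactose in place of glucose, in low glucose or in normal glucose, with 2 samples per condition. GAPDH-bound RNA was recovered by crosslinking and immunoprecipitation (CLIP) and sequenced, to ask which RNAs GAPDH contacts when the sugar supply of glycolysis changes. The authors joined both samples of a condition, so there is 1 list of positions per condition, with no replicate error, read number, score or strand. Shares below therefore carry exact Clopper-Pearson 95% intervals that cover counting error over peaks only, and no difference between lists or gene groups was tested.

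Small subunit proteins fold and hold the ribosomal RNA that reads the mRNA. Those of the head surround the upper side of the mRNA channel, and those of the body and platform line the entry path, the decoding site and the exit. The mRNAs of most ribosomal proteins begin with a C and a run of pyrimidines, the terminal oligopyrimidine (TOP) motif, through which their translation follows nutrient supply. Several of these genes also carry small nucleolar RNAs (snoRNAs), guides for rRNA modification, in their introns.

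The sequences below show the first set that the results turn on, the mRNA starts at which GAPDH peaks lay. Each is 30 bases of hg38 on the strand of the gene, and the middle of the peak is base 16. Capitals mark the unbroken pyrimidine run from the first annotated base of the mRNA, where that run was a C followed by at least 4 pyrimidines. The first 6 are galactose peaks, at chr6:33272060-33272089 (RPS18, plus strand), chr19:41860237-41860266 (RPS19, plus), chr5:82278342-82278371 (RPS23, minus), chr14:49586360-49586389 (RPS29, minus), chr19:8321482-8321511 (RPS28, plus) and chr15:63157466-63157495 (RPS27L, minus). The last is a low glucose peak, at chr11:17077650-17077679 (RPS13, minus).
RPS18: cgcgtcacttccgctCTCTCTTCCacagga
RPS19: ccgggaaaccccgtcgttCCCTTTCCCCTg
RPS23: cttcctgcggtgcttctCTCTTTCgctcag
RPS29: ggccagcttCTTCCTTTTacctcgttgcac
RPS28: ccccgaagcacgtgactcctctccgccaga
RPS27L: cggaagttgatgccgagcgcagatcgcttg
RPS13: cactctcgctctCCTTTCgttgcctgatcg

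The second set shows normal glucose peaks inside the mRNA that were chosen for a G just before the middle of the peak, in capitals. RNase T1, with which the crosslinked RNA was digested, cuts after G. Of 19 normal glucose peaks made from a single crosslink site in these genes, 11 had a G there and 8 another base. The places are chr11:17075159-17075188 (RPS13, minus), chr5:150445624-150445653 (RPS14, minus), chr19:1438868-1438897 (RPS15, plus), chr19:41861171-41861200 (RPS19, plus) and chr11:65120665-65120694 (FAU, minus).
RPS13: gctaaattccgtctGattctaatagagagc
RPS14: ccctcagagcccttGcccgctcgggtatga
RPS15: tcgaccagctgctgGacatgtcctagtaag
RPS19: agcttgctccctacGatgagaactggttct
FAU: atgccaactcttaaGtcttttgtaattctg

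The galactose list held 337 peaks, the low glucose list 484 and the normal glucose list 495. All 78 rows of small subunit protein genes had an identifier, symbol and position that matched GENCODE release 44. Of 10 myeloid marker genes, 1 had a peak (CEBPA, in low glucose), and of 10 markers of other cell types, 0 had one. The lists record crosslinked RNA and not expression, so fewer peaks and less mRNA of a gene cannot be told apart.

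Small subunit protein genes held 23 galactose peaks, 32 low glucose peaks and 23 normal glucose peaks. That was 6.82% (4.38 to 10.1) of all galactose peaks, 6.61% (4.57 to 9.21) of those in low glucose and 4.65% (2.97 to 6.89) of those in normal glucose, and these intervals overlapped. Each list named 14 of these genes, but not the same ones: 8 genes were in all 3 lists, 5 in a pair of lists and 8 in a single list. The same split was not taken over all genes of the lists, so these counts have no value of the series beside them. RPS2, RPS13, RPS16, RPS18, RPS19, RPS20 and RPS29 were among the small subunit protein genes with a peak in every condition. RPS12 and RPS23 were in galactose and low glucose, and RPS21 in galactose and normal glucose. RPS27L and RPS28 had peaks in galactose alone, RPS3 in low glucose alone, and RPS14, RPS15, RPSA and FAU in normal glucose alone. For comparison, large subunit protein genes held 15, 35 and 36 peaks, in the same order of conditions, in 13, 20 and 21 genes.

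**Figure D1:**
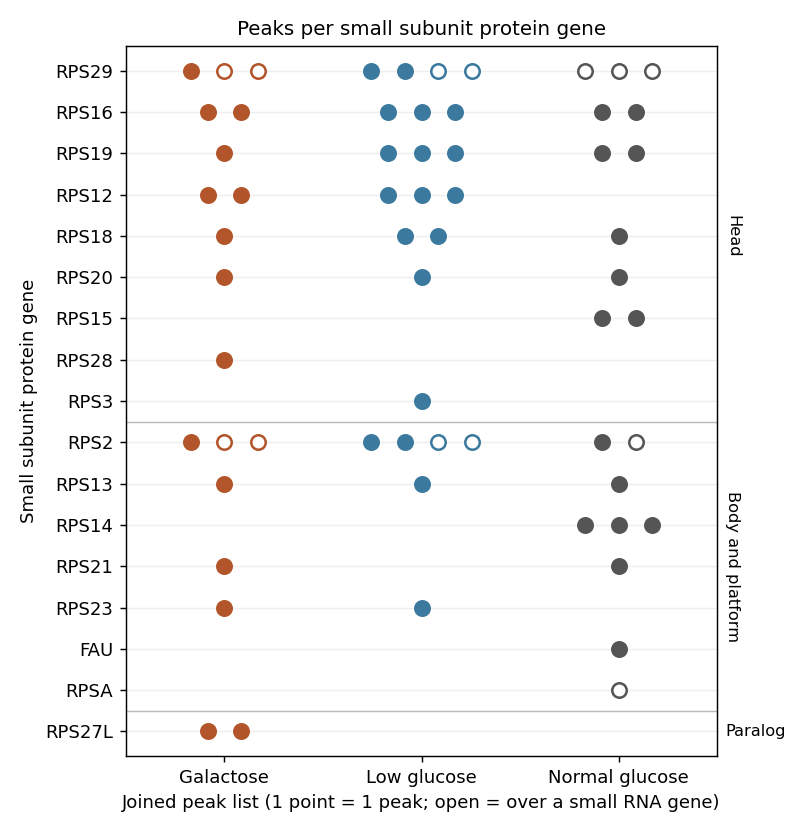
Peaks of 17 small subunit protein genes (vertical axis, grouped by place in the subunit) in the galactose, low glucose and normal glucose lists (horizontal axis). Each point is 1 peak, and open points overlap a small RNA gene. RPS29 has 10 points, 7 of them open, RPS2 has 9, and no other gene shown has more than 7.

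Most genes found in every condition had their peaks at different places. Peaks that overlapped by at least 1 nt were merged into 55 regions, and 4 of these (7.27%, 2.02 to 17.6) held a peak of all 3 lists, beside 11% of all 951 regions of the series. They were the mRNA start of RPS18 (chr6:33272024-33272125), a pair of regions over RN7SL1 within RPS29 (chr14:49586528-49586809 and chr14:49586829-49586931) and SNORA64 in an intron of RPS2 (chr16:1962922-1963022). Only the RPS18 region lay away from small RNA genes, and its peak was also annotated to VPS52. Of the remaining regions 14 were in a pair of lists and 37 in a single list. The pairs were galactose with low glucose in 9 regions, galactose with normal glucose in 3 and low with normal glucose in 2. Over all regions of the series only the share in all 3 lists was taken, so these counts have no value of the series beside them. Of the 8 genes in every list, 3 had a region in all of them and 5 did not.

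Peaks were also compared one by one between lists. Of the galactose peaks of these genes, 13 of 23 (56.5%, 34.5 to 76.8) overlapped a low glucose peak, beside 57% of all galactose peaks. Normal glucose peaks met 7 of 23 (30.4%, 13.2 to 52.9), beside 41.2% of all. Of the low glucose peaks, 13 of 32 (40.6%, 23.7 to 59.4) met a galactose peak and 6 of 32 (18.8%, 7.21 to 36.4) a normal glucose peak, beside 39.7% and 27.9% of all low glucose peaks. Of the normal glucose peaks, 8 of 23 (34.8%, 16.4 to 57.3) met a galactose peak and 6 of 23 (26.1%, 10.2 to 48.4) a low glucose peak, beside 28.3% and 27.3% of all. Every one of these 6 shares had an interval that included the value over all peaks. Without peaks over small RNA genes, 2 of 27 low glucose peaks (7.41%) met a normal glucose peak and 2 of 16 normal glucose peaks (12.5%) a low glucose peak. With middles required within 20 nt, 34.8% of galactose peaks met a low glucose peak and 25% of low glucose peaks a galactose peak. The values over all peaks given above were taken without these settings, so they are not a comparison for these last shares.

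Among head proteins, 11 of 14 genes had a peak, beside 2.8% of all protein coding genes. These head genes held 14 galactose, 22 low glucose and 11 normal glucose peaks, and these counts include the RPS29 peaks over RN7SL1 described below. RPS12, a protein of the beak of the head, had peaks in galactose and low glucose only. Both conditions shared its exon 1 (chr6:132814551-132814659), galactose added a peak of the 5'UTR (untranslated region) in exon 2 (chr6:132814685-132814789), and low glucose added coding peaks in exons 3 (chr6:132814941-132815041) and 4 (chr6:132816441-132816541).

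RPS16, whose tail reaches the tRNA in the ribosome, had peaks in all conditions but no region common to all. Galactose and low glucose shared exon 2 (chr19:39435620-39435747), galactose and normal glucose shared exon 4 (chr19:39433483-39433585), low glucose alone had exons 3 (chr19:39433625-39433725) and 5 (chr19:39433277-39433377), and normal glucose alone had the end of exon 1 (chr19:39435800-39435900). RPS19, needed for the maturation of small subunit rRNA and mutated in Diamond-Blackfan anaemia, had its mRNA start in galactose and low glucose (chr19:41860202-41860308). Low glucose added peaks in exons 2 (chr19:41860744-41860859) and 4 (chr19:41869029-41869129), and normal glucose had peaks in exons 3 (chr19:41861136-41861236) and 4 (chr19:41869130-41869230). The exon 4 peaks of low and normal glucose abutted with 0 nt between them, so they counted as separate regions under the overlap rule.

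RPS29, a small zinc-binding protein of the head and another Diamond-Blackfan anaemia gene, had the most peaks, 10 over the lists. Of these 7 lay over RN7SL1, the gene of the signal recognition particle RNA, on the opposite strand and before the start of the canonical RPS29 mRNA. The other 3 were the mRNA start in galactose and low glucose (chr14:49586324-49586424, with identical ends) and exon 2 in low glucose (chr14:49585988-49586088). No normal glucose peak among those analysed here lay on RPS29 exons. RPS18, which takes part in bridges to the large subunit, had its mRNA start in all conditions and a low glucose peak in exon 2 (chr6:33272590-33272691). RPS20 had overlapping exon 2 peaks in galactose and low glucose (chr8:56074063-56074206) and a 5'UTR peak in exon 1 in normal glucose (chr8:56074373-56074473). Other head genes had peaks in 1 condition each: RPS28, near the mRNA exit, at the mRNA start in galactose, RPS3, at the mRNA entry, in exon 5 in low glucose, and RPS15, whose tail reaches towards the decoding site, in exons 2 and 3 in normal glucose.

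Among body and platform proteins, 9 of 18 genes had a peak, beside 2.8% of all protein coding genes. They held 7 galactose, 10 low glucose and 12 normal glucose peaks. These counts include peaks over snoRNA genes, and RPSA was among the 9 genes only through such a peak. RPS2, at the mRNA entry, had 3, 4 and 2 peaks in galactose, low glucose and normal glucose. Besides SNORA64, a region over SNORA10 in the 3'UTR of another RPS2 transcript (chr16:1962283-1962433) was in galactose and low glucose, and exon 2 (chr16:1964494-1964637) was in low and normal glucose. Single lists held exon 6 in galactose (chr16:1962569-1962669) and a 5'UTR peak of another RPS2 transcript in low glucose (chr16:1964692-1964792). RPS21 had a 5'UTR region just before its start codon in galactose and normal glucose (chr20:62387285-62387388).

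RPS13 was in every list without a common place, with exon 3 in galactose, the mRNA start in low glucose and exon 5 in normal glucose. RPS23, a protein of the decoding centre, had a peak at the mRNA start in galactose and in exon 2 in low glucose. RPS14, a platform protein whose loss is known from the 5q- syndrome of myeloid cells, had 3 peaks, all in normal glucose, in exon 2 (chr5:150447622-150447722), exon 4 (chr5:150445588-150445688) and the last exon (chr5:150444199-150444299). FAU, which encodes a small subunit protein fused to a ubiquitin-like protein, had a 3'UTR peak in normal glucose. RPSA, also known as a laminin receptor, had a normal glucose peak over SNORA62 in an intron. RPS27L, a paralog of RPS27 and a known p53 target, was counted in neither structural group and had 2 galactose peaks, at the mRNA start and in exon 2.

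The 13 genes without a peak among those analysed here were RPS3A, RPS4X, RPS4Y1, RPS6, RPS7, RPS9, RPS10, RPS15A, RPS24, RPS25, RPS26, RPS27 and RPS27A. RPS6, the target of the S6 kinases, and RPS27A, which is made as a ubiquitin fusion, are among them. Canonical mRNAs had a median length of 631 nt (295 to 6110) in the 21 genes with a peak and 785 nt (352 to 2203) in the 13 without, and these ranges overlapped.

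Most peaks of these genes lay in exons of the mRNA. The middle of the peak was in the 5'UTR for 10 of 23 galactose peaks (43.5%, 23.2 to 65.5), 8 of 32 low glucose peaks (25%, 11.5 to 43.4) and 3 of 23 normal glucose peaks (13%, 2.78 to 33.6). All peaks of protein coding genes gave 29.6%, 22% and 13.9% in the same order of conditions. The coding sequence (CDS) held 9 galactose peaks (39.1%, 19.7 to 61.5), 19 low glucose peaks (59.4%, 40.6 to 76.3) and 11 normal glucose peaks (47.8%, 26.8 to 69.4), beside 22.1%, 31.4% and 34.1% of all. For the coding share, only the low glucose interval excluded the value over all protein coding genes. Large subunit protein genes gave coding shares of 40%, 54.3% and 63.9%. Their intervals in low glucose (36.6 to 71.2) and normal glucose (46.2 to 79.2) also excluded the value over all. The 3'UTR held 1, 1 and 2 peaks, beside 4.42%, 5.08% and 5.99% of all. Introns held 3, 4 and 7 peaks (13%, 12.5% and 30.4%), beside 38.5%, 37.6% and 42.6% of all, and each of these intronic peaks overlapped a small RNA gene. The intervals for introns (2.78 to 33.6 in galactose, 3.51 to 29 in low glucose and 13.2 to 52.9 in normal glucose) excluded the value over all in galactose and low glucose. Large subunit protein genes gave intron shares of 26.7%, 14.3% and 19.4%. Their intervals in low glucose (4.81 to 30.3) and normal glucose (8.19 to 36) excluded the value over all. When any overlap with an exon was counted in place of the middle, the 5'UTR shares were 17.4%, 12.5% and 0% and the CDS shares 65.2%, 71.9% and 69.6% in galactose, low glucose and normal glucose.

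**Figure D2:**
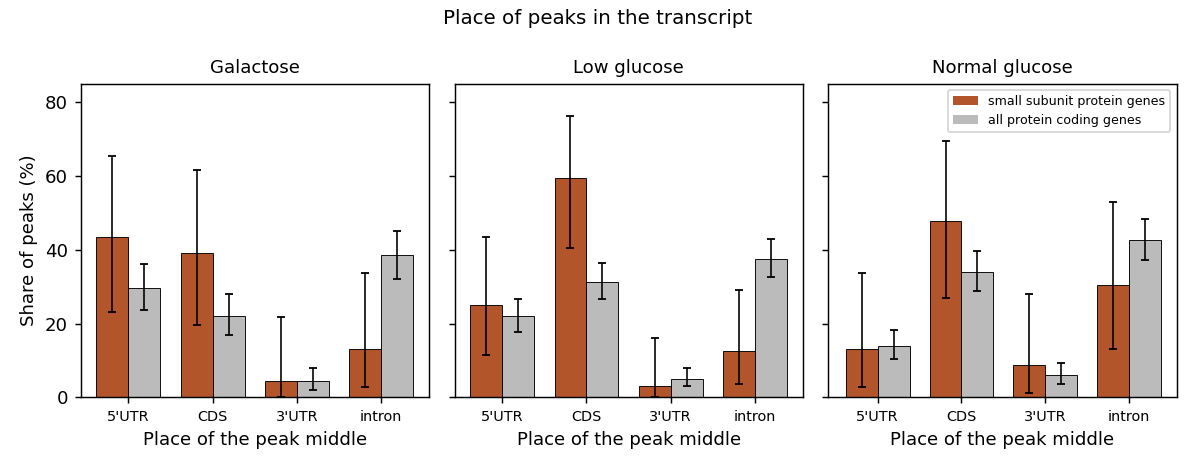
Share of peaks (%, vertical axis) whose middle lay in the 5'UTR, CDS, 3'UTR or intron, for small subunit protein genes (left bar of each pair) and all protein coding genes (right bar), with exact 95% intervals, in 1 panel per condition. The 5'UTR share of small subunit protein genes is 43.5% for galactose, 25% for low glucose and 13% for normal glucose.

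Exonic peaks were placed along the spliced mRNA. The median position of the middle in the canonical transcript was 94.5 nt (41 to 287, n = 16 peaks) in galactose, 108 nt (61 to 198, n = 25) in low glucose and 138 nt (100 to 372, n = 16) in normal glucose. All protein coding genes gave 106, 154 and 331 nt, over mRNAs of any length, and each interval held the value over all. Counted from the most upstream start of any transcript, the low glucose median was 229 nt. Exons 1 to 3 held 13 of 16, 20 of 25 and 10 of 16 peaks in galactose, low glucose and normal glucose (81.2%, 80% and 62.5%), beside 87.4%, 78.7% and 58.3% of all exonic peaks of protein coding genes. Within 50 nt of a splice site lay 13 of 16, 23 of 25 and 12 of 16 (81.2%, 92% and 75%), beside 38.9%, 39.9% and 49.7% of all. The mRNAs differ in this respect too. Averaged over peaks, 64.5%, 59.8% and 51.4% of all positions in the mRNAs of small subunit proteins lay that close to a splice site, against 34%, 33.8% and 33.5% in all protein coding genes with an exonic peak, and the part of exon length in these shares was not tested.

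A group of 12 peaks in 8 genes lay on the mRNA start itself. The middle was within 20 nt of the first annotated base for 6 of 23 galactose peaks (26.1%, 10.2 to 48.4), 5 of 32 low glucose peaks (15.6%, 5.28 to 32.8) and 1 of 23 normal glucose peaks (4.35%, 0.11 to 21.9). All protein coding genes gave 11.5%, 4.52% and 3.79%, and only the low glucose interval excluded that value. This window was set with the positions already known. All 12 peaks were within 6 nt of the first base, and the next peak of these genes was 35 nt away. The galactose peaks were in RPS18, RPS19, RPS23, RPS27L, RPS28 and RPS29, the low glucose peaks included RPS13, RPS18, RPS19 and RPS29, and the normal glucose peak in RPS18. In RPS19, RPS23 and RPS27L in galactose and RPS18 in low glucose the middle lay 1 to 3 nt before the annotated first base, and these peaks were counted as 5'UTR.

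The TOP motif stood at most of these starts and in most of the gene family. A C followed by at least 4 pyrimidines (C or T) from the first annotated base, read on the strand of the gene, was present in 6 of the 8 genes with a start peak, as the capitals show for those printed in the first set of sequences. By this match it was absent from RPS27L and RPS28. In the printed RPS28 sequence, however, the annotated first base is an A, and a pyrimidine run that begins with C follows it directly. Of all 34 genes 26 had the motif at the annotated first base, and of the 21 with a peak 16 did, beside 919 of 20033 protein coding genes (4.59%). The genes without it at that base included RPS4X, RPS7, RPS15, RPS26, RPS27L and RPS28. The motif was matched to the annotated first base of 1 transcript per gene, and other start sites were not examined for it.

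**Figure D3:**
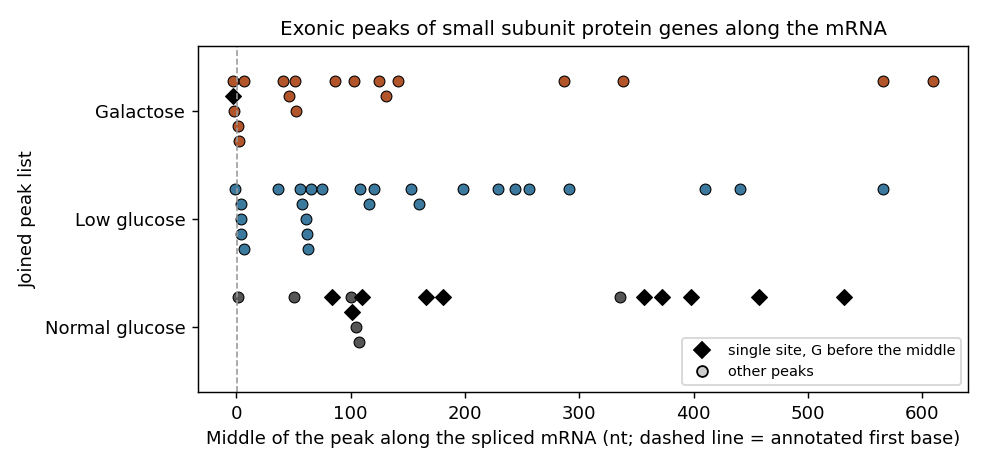
Middle of each exonic peak of small subunit protein genes along the spliced canonical mRNA (nt, horizontal axis), in 1 row per condition, with the first annotated base as a dashed line and peaks set apart vertically only to keep them visible. Points just left of the line have their middle up to 3 nt before the first base, and black diamonds are single-site peaks with a G before the middle, of which galactose has 1, at the start, and low glucose 0.

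The base before the middle of the peak was a G in a larger share of normal glucose peaks. Positions were counted from 1 because the G in normal glucose peaks then fell at the same offset on both strands. The offset of the G was thus set with peaks that are also counted here. Peaks made from a single crosslink site all have 1 fixed length, and their middle was taken as that site. A G stood just before it in 1 of 17 galactose peaks (5.88%, 0.149 to 28.7), 0 of 17 low glucose peaks (0 to 19.5%) and 11 of 19 normal glucose peaks (57.9%, 33.5 to 79.7). Other protein coding genes gave 25.2%, 28.5% and 62.1% in the same order, and large subunit protein genes 27.3%, 37.5% and 71.4%. The normal glucose list thus had the highest share in each of these groups, while the shares of small subunit protein genes in galactose and low glucose were below those of the other genes. The interval for low glucose excluded the value over the other genes, and that for galactose did not. The 1 galactose peak was the RPS27L start, so without start peaks the galactose share was 0%. The 11 normal glucose peaks included those in RPS13, RPS14 (3), RPS15 (2), RPS19 (2), RPS20 and FAU, and in each of these genes they were all of its normal glucose peaks.

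The normal glucose peaks with a G were not shared with another list. Of these 11 peaks, 0 (0 to 28.5%) met a galactose or low glucose peak, while 6 of the 8 with another base did (75%, 34.9 to 96.8), among them peaks of RPS2, RPS16, RPS18 and RPS29. The RPS29 peak lay over RN7SL1 and an RPS2 peak over SNORA64. In other protein coding genes 16% of such normal glucose peaks with a G and 41% of those with another base met another list. Both intervals of the small subunit protein genes included the value of the other genes. The comparison was added after the peaks had been inspected. RNase T1 cuts after G, and the part of digestion in these peaks was not tested.

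**Figure D4:**
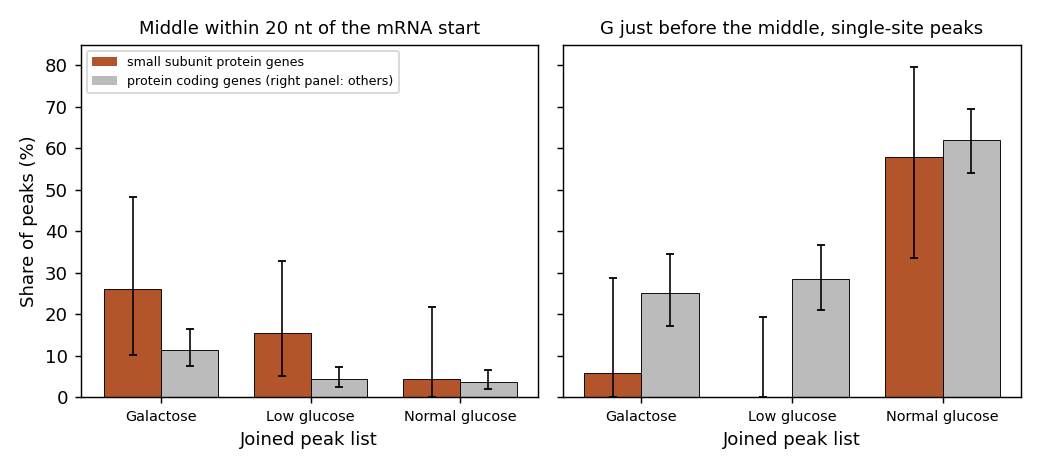
Share of peaks (%, vertical axis) with the middle within 20 nt of the mRNA start (left panel) and share of single-site peaks with a G before the middle (right panel), with exact 95% intervals, for small subunit protein genes (left bar of each pair) and protein coding genes (right bar; in the right panel without small subunit protein genes). The G share of small subunit protein genes is 5.88% for galactose, 0% for low glucose and 57.9% for normal glucose.

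Peaks over small RNA genes were 4 of 23 (17.4%, 4.95 to 38.8) in galactose, 5 of 32 (15.6%, 5.28 to 32.8) in low glucose and 7 of 23 (30.4%, 13.2 to 52.9) in normal glucose, beside 40.4%, 31.2% and 39.6% of all peaks, and only the galactose interval excluded the value over all. Among the small RNA genes were RN7SL1 beside RPS29, SNORA10 and SNORA64 in RPS2 and SNORA62 in RPSA. Because the lists carry no strand, it is not known whether the RNA at these places came from the small RNA, the host transcript or, at RN7SL1, the opposite strand. Without such peaks RPSA had no peak left among those analysed here, 20 genes kept a peak, and 7 genes were in every list.

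Sequence repeated elsewhere in the genome was about as frequent as in the full lists. More than 50% of the 30-base words recurred in the genome in 3 galactose, 4 low glucose and 5 normal glucose peaks (13%, 12.5% and 21.7%), beside 18.1%, 13.6% and 25.3% of all peaks. The median GC content of the peaks was 58.4%, 57.4% and 60.4%, beside 57.4%, 59.2% and 54.5% over all peaks of the same lists.

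Genes that work with the small subunit were counted beside it. None of 12 small subunit assembly factors had a peak in any condition, beside 2.8% of all protein coding genes. Of 20 partners of the subunit in translation initiation, 3 had one, beside 2.8% of all protein coding genes: RACK1, a scaffold protein on the head of the subunit, in all conditions, and EIF1, which guards start codon choice, and EIF3J, a loosely bound part of initiation factor eIF3, in low glucose.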

How the data were processed

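GAPDH CLIP-seq was performed in MOLM-13 cells in galactose, low glucose and normal glucose (6 samples, 2 per list). Per the study's methods, GAPDH crosslinked to RNA by UV was precipitated, digested with RNase T1 and sequenced, whereas the extract protocol of the labels describes total RNA. The submitters' processing notes name cutadapt, STAR, hg38 and GRCh38, without versions. PureCLIP sites were merged or extended, and the authors joined the samples into 1 deposited list of positions per condition, with other columns holding only gene identifiers and symbols. Peak thresholds and joining decide which places could be listed. Depth is not given in the sources used here.

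Each distinct interval was 1 peak. Positions were counted from 1, since in normal glucose peaks the G before the middle fell at the same offset on both strands. Places, strands and small RNA genes came from GENCODE 44, tRNA genes from RefSeq. Shares carry exact 95% intervals (scipy 1.17.1, Python 3.11.15, pysam 0.24.0). No p-value was computed. Genes with a peak were named, except some that are counted but not reported here by name, with positions for regions in 2 or 3 lists and for genes with at least 3 peaks in a list; other positions were named after they were seen. Genes and lists were chosen with earlier results of these data known. Scripts were tested on simulated data. Alternatives covered overlap, transcript choice, repeats, small RNA genes and shared annotation.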

Additional observations from a re-analysis of the deposited data

How the results depend on the processing

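Of 138 values under alternative settings, 120 stayed within the 95% interval of the main value and 18 moved further. Gene counts have no interval and were held to within 1.5 times the main value. With peaks annotated to 1 gene only, 0% of regions were in all 3 lists, 4% of low glucose peaks met a normal glucose peak, and 6.67% of normal glucose peaks met a low glucose peak, since this leaves out the RPS18 start and the small RNA genes. Counting any overlap with an exon gave 17.4% 5'UTR and 65.2% CDS in galactose, 12.5% 5'UTR in low glucose (within its interval), and 0% 5'UTR, 69.6% CDS and 0% 3'UTR in normal glucose. On the canonical transcript only, the 3'UTR share was 0% in galactose and 0% in low glucose. Within the interval but by over 1.5 times, regions in all 3 lists fell to 2.08% without peaks over small RNA genes and 4.76% with middles within 20 nt. Normal glucose peaks met by low glucose were 12.5% without peaks over small RNA genes and 43.5% with peaks joined within 50 nt, and low glucose peaks met by normal glucose were 7.41% without peaks over small RNA genes. Galactose peaks met by low glucose were 34.8%, and low glucose peaks met by galactose 25%, with middles within 20 nt. Peaks over small RNA genes of the same strand were 8.7%, 9.38% and 17.4% in galactose, low glucose and normal glucose. With peaks annotated to 1 gene only, 16.7% of galactose peaks met normal glucose and 20% of normal glucose peaks met galactose. The normal glucose intron share was 17.4% on the canonical transcript, and its mRNA start share 8.7% with the start of any transcript. The values from here to the share with a G were again outside their interval. Without peaks over small RNA genes, the 3'UTR share was 0% in galactose and low glucose, and the intron share 0% in all conditions. With the middle required inside the small RNA gene, the galactose share over such genes was 4.35%. From the most upstream start of any transcript, the low glucose median distance was 229 nt. Without peaks at the mRNA start, the galactose share with a G before the middle was 0%. That setting, and all settings of the mRNA start window, were chosen after seeing the data. No paired analysis was possible because the samples of a condition were joined before deposit and no result comes from a test. For the same reason no sample could be left out, and without scores no stricter peak threshold could be set. Depth is unknown, so a gene without a peak is not shown to be unbound.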

Other observations

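Of 498 annotated pseudogenes of small subunit proteins, which were not counted with the genes, 0 had a galactose peak, 0 a low glucose peak and 5 a normal glucose peak. The lists held 337, 484 and 495 peaks in the same order. No count over all pseudogenes was taken, so these counts have no value of the series beside them. The 5 pseudogenes were RPS2P17 (chr2:84916032-84916132), RPS15P4 (chr2:171517319-171517419), RPS2P18 (chr2:173298308-173298422), RPSAP53 (chr13:67267175-67267275) and RPSAP3 (chr14:76635568-76635668), named after their positions were seen. The RPS15P4 peak shared 91.7% of its 30-base words with the RPS15 mRNA, the RPSAP3 peak 36.1% with RPSA, the RPSAP53 peak 13.9% with RPSA, the RPS2P17 peak 5.56% with RPS2 and the RPS2P18 peak 2.33% with RPS2. None shared a word with a peak of its parent gene in the same list. A G stood before the middle of every one of these peaks except that of RPS2P18, on the strand of the pseudogene.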
